A study of Homo sapiens with 4 samples.

Results

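The BCL2 family was followed at 10 genes, listed by symbol, in MOLM-13 cells overexpressing GADD45G. They comprise the pro-survival genes BCL2, BCL2L1, MCL1 and BCL2A1, the BH3-only genes PMAIP1, BMF, BBC3 and BCL2L11, and the effectors BAX and BAK1. All 10 were listed in every library and were among the 10771 genes tested, out of 57820 gene IDs in the complete files. The study profiled RNA by sequencing in 2 libraries of GADD45g cells and in 2 libraries of untreated control cells. The GADD45g cells received doxycycline at 1 mg/ml (as labelled) for 4 days. The control cells, without doxycycline, are labelled 4 days as well. MOLM-13 is a human cell line from acute myeloid leukaemia with an MLL-AF9 fusion and an internal tandem duplication of FLT3. GADD45G encodes a small protein induced by stress that binds kinases and regulators of the cell cycle. The sources used here do not give the expression construct, its promoter or whether the line is a clone. Doxycycline and the transgene differed together between the groups, so their effects cannot be told apart.

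BCL2 proteins decide whether the outer membrane of the mitochondrion is opened during apoptosis. BAX and BAK form the pore, the pro-survival proteins hold them and the BH3-only proteins in check, and BH3-only proteins bind into the groove of the pro-survival proteins with differing preferences, NOXA for MCL1 and A1, and BIM and PUMA for all of them. Myeloid leukaemia cells lean on BCL2 and MCL1 to differing degrees, and drugs that mimic BH3 domains act on this balance.

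The libraries held 18895470 and 15968886 reads in GADD45g cells and 18778791 and 15683931 reads in untreated cells, as recovered from the deposited values. GADD45G itself stood at 3236 and 2118 RPKM (reads scaled to gene length and to library depth) in GADD45g cells, against 10.5 and 0.289 RPKM in untreated cells. Of the 10 myeloid markers, LYZ, SPI1, PTPRC, CD33, HOXA9 and MEIS1 averaged over 1 RPKM, while CSF2RA was listed at 0 and MPO, FLT3 and CD68 lay below. FLT3 was at 0.0889 and 0.0451 RPKM in GADD45g cells (7 and 3 reads), against 0.958 and 1.19 RPKM in untreated cells (75 and 78 reads), and was not tested. The summed level of these markers was 442 and 404 RPKM in GADD45g cells and 1339 and 1020 RPKM in untreated cells. Of the 6 tested only LYZ was called, lower in GADD45g cells. LYZ alone was at 268 and 242 RPKM in GADD45g cells and 1173 and 868 RPKM in untreated cells. By group means, SPI1 and PTPRC were higher and CD33, HOXA9 and MEIS1 lower in GADD45g cells, without a call. The part of these differences in the results below was not tested. Markers of epithelium, 7 in all, summed to 40.8 and 0.245 RPKM in GADD45g replicates 1 and 2, and to 41.7 and 0.423 RPKM in untreated replicates 1 and 2. An epithelial signal was thus present in replicate 1 of both groups, and its part in the results below was not tested. Differences within replicate 2, where EPCAM and KRT19 were at 0, are therefore given beside the called members. Fibroblast, lymphoid and erythroid marker lists summed to at most 0.469, 4.83 and 0.558 RPKM in any library.

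PMAIP1 and BMF, a pair of BH3-only genes, and MCL1 and BCL2A1, a pair of pro-survival genes, were higher in GADD45g cells. BCL2 and BCL2L11 were lower, and the other 4 members did not pass the threshold. Of the 10 members 4 were thus called higher and 2 lower (limma, Benjamini-Hochberg adjusted p under 0.05 over all genes). Among all tested genes 38.9% were called, 12.2% higher and 26.7% lower. Of the members called lower, BCL2 passed the filter of a mean of 1 RPKM only through the untreated libraries. Neither lower call held under the other scalings of the libraries described below. The GADD45g and untreated values did not overlap for any of the 10 members, 6 of them higher and 4 lower. The same was so for 70.0% of all tested genes, 24.1% of them higher and 45.8% lower, as shares of all tested genes. The median log2 change was 0.39 over the members and -0.21 over all tested genes. Changes are differences in log2(RPKM + 1), which understate those of low genes. In these bulk samples, fewer cells expressing a gene and less of its RNA per cell cannot be told apart.

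**Figure D1:**
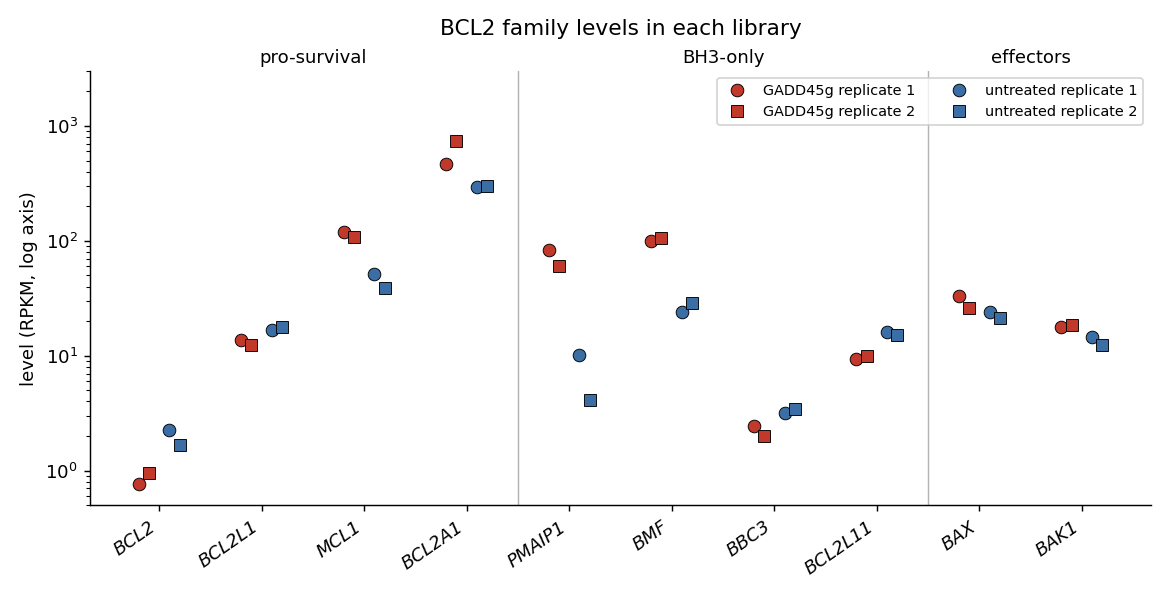
Level of each BCL2 family member in RPKM on a log axis, with 1 point per library (red, GADD45g; blue, untreated; circles, replicate 1; squares, replicate 2). PMAIP1 stands apart, with 83.9 and 60.5 RPKM in GADD45g cells and 10.2 and 4.08 RPKM in untreated cells, while BCL2A1 was the most abundant member in all 4 libraries.

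Among the BH3-only genes, PMAIP1 changed most. PMAIP1 (ENSG00000141682.11, chromosome 18 from 59899948 to 59904306 on the plus strand in GRCh38) encodes NOXA, which binds MCL1 and promotes its breakdown. It was at 83.9 and 60.5 RPKM in GADD45g replicates 1 and 2, against 10.2 and 4.08 RPKM in untreated replicates 1 and 2. Both GADD45g libraries lay far above both untreated ones, and in each group replicate 1 was the higher. The mean was 72.2 ± 16.6 RPKM in GADD45g cells and 7.14 ± 4.33 RPKM in untreated cells (SD, n = 2 each), a 10.1-fold difference. Without untreated replicate 1 the fold was 17.7, and without untreated replicate 2 it was 7.08. The log2 change was 3.26 ± 0.35 (SE; limma adjusted p = 5.72e-05), with differences of 2.92 between the replicate 1 libraries and 3.60 between the replicate 2 libraries. The untreated values rested on 428 and 143 reads, with 95% counting intervals of 9.25 to 11.2 RPKM and 3.44 to 4.81 RPKM, so the gap between the untreated libraries was larger than counting error. The untreated library with more PMAIP1, replicate 1, was also the one with more GADD45G and the one with the epithelial signal. No link between these was tested.

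BMF (ENSG00000104081.9, chromosome 15 from 40087890 to 40108892 on the minus strand in GRCh38) encodes a BH3-only protein that is held at the cytoskeleton until it is released under stress. It was at 99.2 and 106 RPKM in GADD45g replicates 1 and 2, against 24.1 and 28.98 RPKM in untreated replicates 1 and 2. The replicates of each group lay close together, and the groups were well apart. BMF was 3.87-fold higher in GADD45g cells (log2 change 1.92 ± 0.24; limma adjusted p = 0.000152), with differences of 2.00 within replicate 1 and 1.84 within replicate 2. BMF-AS1 shares 461 exon bases with BMF on the opposite strand in GENCODE 29. Since no source used here gives the strand of the reads, reads of the antisense gene could be counted in BMF, and its own level was not analysed here.

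BCL2L11 (ENSG00000153094.17, chromosome 2 from 111119378 to 111168447 on the plus strand in GRCh38), which encodes BIM, a BH3-only protein that engages all pro-survival members, moved the other way. It was at 9.29 and 9.98 RPKM in GADD45g replicates 1 and 2, against 16.0 and 15.3 RPKM in untreated replicates 1 and 2. The replicates lay close together in each group, and the groups did not overlap. Its log2 change was -0.65 ± 0.22 (limma adjusted p = 0.0361), and it was 1.62-fold lower in GADD45g cells, with differences of -0.72 within replicate 1 and -0.57 within replicate 2. The call was lost when any 1 of the 4 libraries was left out (adjusted p = 0.0659 to 0.18), and it did not hold once the median change of all genes was set to 0 (log2 change -0.43, adjusted p = 0.143). MIR4435-2HG, which shares 727 exon bases with BCL2L11 on the opposite strand in GENCODE 29, was at 6.87 and 7.68 RPKM in GADD45g cells and 3.75 and 4.55 RPKM in untreated cells, and its part in the BCL2L11 values was not tested.

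BBC3 (ENSG00000105327.11), which encodes PUMA, was at 2.45 and 2.01 RPKM in GADD45g cells, against 3.17 and 3.43 RPKM in untreated cells. The log2 change of -0.42 did not pass the threshold (limma 95% interval -0.89 to 0.06; adjusted p = 0.151). The values came from 147, 102, 189 and 171 reads in GADD45g replicates 1 and 2 and untreated replicates 1 and 2.

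The make-up of the BH3-only RNA differed between the groups. PMAIP1 made up 43.1% and 33.9% of the summed RPKM of the 4 BH3-only genes in GADD45g replicates 1 and 2, against 19.1% and 7.88% in untreated replicates 1 and 2. BCL2L11 made up 4.77% and 5.59% in GADD45g cells and 29.95% and 29.5% in untreated cells. The sum itself was 195 and 179 RPKM in GADD45g cells and 53.4 and 51.7 RPKM in untreated cells. By its own RPKM, BCL2L11 was 1.62-fold lower in GADD45g cells. BMF held the largest share in all 4 libraries, at 50.9% and 59.4% in GADD45g cells and 45.0% and 56.0% in untreated cells. The ratio of BMF to BCL2L11 was 10.7 and 10.6 in GADD45g cells, against 1.50 and 1.90 in untreated cells.

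The promoters of 3 BH3-only genes are shown because their RNA moved most in either direction. Each is the 250 bases before the start of the RefSeq gene, 5′ to 3′ on the strand of the gene, from RefSeq on GRCh38.p14. They lie at chr18:59899746-59899995 on the plus strand (PMAIP1), chr15:40108880-40109129 on the minus strand (BMF) and chr2:111120664-111120913 on the plus strand (BCL2L11). Capitals mark exact matches, on either strand, to the GC box GGGCGG or the forkhead motif TGTTTAC.
PMAIP1: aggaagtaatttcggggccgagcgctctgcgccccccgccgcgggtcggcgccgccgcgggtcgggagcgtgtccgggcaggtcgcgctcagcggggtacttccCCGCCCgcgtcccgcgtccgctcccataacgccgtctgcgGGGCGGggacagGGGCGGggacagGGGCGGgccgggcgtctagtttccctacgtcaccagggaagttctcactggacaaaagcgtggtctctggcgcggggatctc
BMF: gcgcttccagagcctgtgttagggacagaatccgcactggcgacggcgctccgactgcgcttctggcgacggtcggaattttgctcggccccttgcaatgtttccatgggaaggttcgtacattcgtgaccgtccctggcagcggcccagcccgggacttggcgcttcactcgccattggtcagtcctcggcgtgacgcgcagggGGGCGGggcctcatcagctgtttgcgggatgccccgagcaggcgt
BCL2L11: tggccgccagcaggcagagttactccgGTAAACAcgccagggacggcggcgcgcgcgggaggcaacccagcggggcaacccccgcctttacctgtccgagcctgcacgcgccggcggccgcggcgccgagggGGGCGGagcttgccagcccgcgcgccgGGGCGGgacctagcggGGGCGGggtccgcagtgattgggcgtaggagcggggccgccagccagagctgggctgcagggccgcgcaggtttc

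The PMAIP1 stretch holds 4 GC boxes, the BMF stretch 1, and the BCL2L11 stretch 3 together with a forkhead motif that ends 217 bases before the start. GC boxes are common, found in 42.3% of the 27305 promoters searched, and the forkhead motif is in 2.98% of them. The full cAMP response element TGACGTCA (1.77% of promoters) was in 0 of the 9 members' promoters in the table. Shorter forms of this element were not searched. An AP-1 motif, TGACTCA or TGAGTCA (4.16% of promoters), was in 1 of the 9, that of BBC3. MCL1 had no entry among the promoters used, so its promoter was not searched. A match describes these letters only.

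Among the pro-survival genes, MCL1 and BCL2A1 were higher in GADD45g cells. MCL1 (ENSG00000143384.8, chromosome 1 from 150574551 to 150579738 on the minus strand in GRCh38) encodes a short-lived protein on which many myeloid leukaemias depend. It was at 119 and 108 RPKM in GADD45g replicates 1 and 2, against 51.5 and 39.0 RPKM in untreated replicates 1 and 2. The groups were far apart relative to the spread within them. MCL1 was 2.52-fold higher (log2 change 1.32 ± 0.25; limma adjusted p = 0.00197), with differences of 1.20 and 1.45 within the replicate 1 and the replicate 2 libraries. The gene-level value sums the splice forms of MCL1, including a short form that promotes death.

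BCL2A1 (ENSG00000140379.7, chromosome 15 from 79960889 to 79971446 on the minus strand in GRCh38) encodes A1, also called BFL1, an NF-kB-inducible protein of myeloid cells. It was at 466 and 744 RPKM in GADD45g replicates 1 and 2, against 293 and 302 RPKM in untreated replicates 1 and 2. Both GADD45g libraries were above both untreated ones, but they differed from each other more than the untreated ones did. The mean was 605 ± 197 RPKM in GADD45g cells and 298 ± 6.58 RPKM in untreated cells (SD, n = 2 each), and the log2 change was 0.98 ± 0.30 (limma adjusted p = 0.0231). The difference was 0.67 within replicate 1 and 1.30 within replicate 2. Without GADD45g replicate 2 the log2 change was 0.64 (adjusted p = 0.198), and without either untreated library the call was also lost (adjusted p = 0.115 and 0.0974).

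BCL2 (ENSG00000171791.10, chromosome 18 from 63123346 to 63320128 on the minus strand in GRCh38), the founding member and the target of venetoclax, was the least abundant of the 10. It was at 0.759 and 0.956 RPKM in GADD45g replicates 1 and 2, against 2.24 and 1.66 RPKM in untreated replicates 1 and 2. These values correspond to 110 and 117 reads in GADD45g cells and 322 and 200 reads in untreated cells. BCL2 was 2.27-fold lower by mean RPKM (log2 change -0.66 ± 0.23; limma adjusted p = 0.0383), with differences of -0.88 within replicate 1 and -0.45 within replicate 2. It lay below 1 RPKM in both GADD45g libraries and passed the filter of a mean of 1 RPKM through the untreated ones. With the median change of all genes set to 0 it no longer passed (log2 change -0.45, adjusted p = 0.143). It passed without untreated replicate 2 (adjusted p = 0.0325) but not without untreated replicate 1, GADD45g replicate 1 or GADD45g replicate 2 (adjusted p = 0.0963, 0.222 and 0.129).

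BCL2L1 (ENSG00000171552.8), which encodes BCL-XL and by splicing a short pro-death form, was at 13.6 and 12.3 RPKM in GADD45g cells, against 16.9 and 17.9 RPKM in untreated cells. The groups did not overlap, but the log2 change of -0.40 did not pass the threshold (limma 95% interval -0.88 to 0.09; adjusted p = 0.178). Relative to the median of all genes the change was -0.19. The ratio of MCL1 to BCL2L1 was 8.78 and 8.79 in GADD45g cells and 3.05 and 2.18 in untreated cells.

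BCL2A1 held most of the pro-survival RNA per length in every library. Its share of the summed RPKM of the 4 pro-survival genes was 77.7% and 85.97% in GADD45g replicates 1 and 2 and 80.6% and 83.8% in untreated replicates 1 and 2. The share of MCL1 was 19.9% and 12.5% in GADD45g cells and 14.2% and 10.8% in untreated cells. BCL2 made up 0.127% and 0.110% in GADD45g cells, against 0.615% and 0.461% in untreated cells. That of BCL2L1 was 2.27% and 1.42% in GADD45g cells, against 4.635% and 4.96% in untreated cells. The shares of BCL2A1 and MCL1 overlapped between the groups, whereas the shares of BCL2 and BCL2L1 did not. The sum behind these shares was 600 and 866 RPKM in GADD45g cells and 364 and 361 RPKM in untreated cells.

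**Figure D2:**
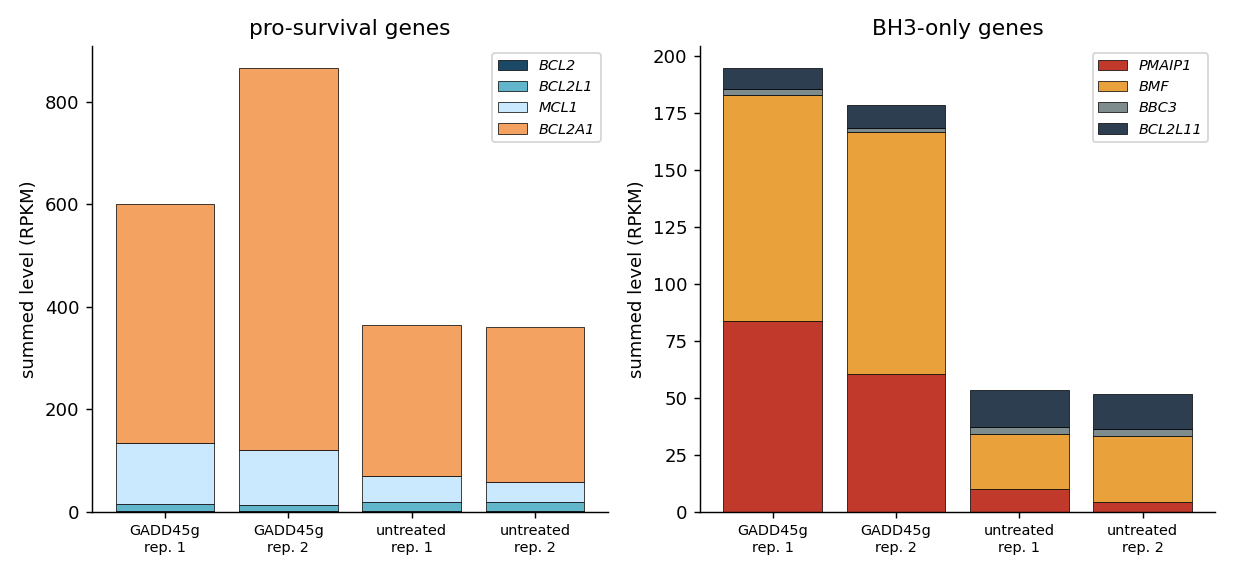
Summed RPKM of the 4 pro-survival genes (left) and the 4 BH3-only genes (right) in each library, stacked by gene, with the GADD45g libraries left of the untreated ones. The BH3-only sum was 195 and 179 RPKM in GADD45g cells and 53.4 and 51.7 RPKM in untreated cells, and most of it came from BMF and PMAIP1 in GADD45g cells.

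Neither effector passed the threshold. BAX (ENSG00000087088.15), which moves to the mitochondrion on activation, was at 33.4 and 26.0 RPKM in GADD45g replicates 1 and 2, against 24.0 and 21.3 RPKM in untreated replicates 1 and 2. Its log2 change of 0.37 did not pass (limma 95% interval -0.16 to 0.89; adjusted p = 0.247). BAK1 (ENSG00000030110.8), which sits in the mitochondrial membrane, was at 17.8 and 18.6 RPKM in GADD45g cells and 14.5 and 12.4 RPKM in untreated cells (log2 change 0.41, limma 95% interval -0.08 to 0.90, adjusted p = 0.170). BAK1 passed after TMM scaling (log2 change 0.65, adjusted p = 0.0416) and with the median change set to 0 (0.62, adjusted p = 0.0489). The ratio of BAX to BAK1 overlapped between the groups, at 1.88 and 1.40 in GADD45g cells and 1.66 and 1.72 in untreated cells.

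The BAX promoter is shown for its run of E-boxes (CACGTG, capitals), the motif bound by MYC and other factors. It is the 250 bases before the RefSeq start on GRCh38.p14, at chr19:48954625-48954874 on the plus strand.
BAX: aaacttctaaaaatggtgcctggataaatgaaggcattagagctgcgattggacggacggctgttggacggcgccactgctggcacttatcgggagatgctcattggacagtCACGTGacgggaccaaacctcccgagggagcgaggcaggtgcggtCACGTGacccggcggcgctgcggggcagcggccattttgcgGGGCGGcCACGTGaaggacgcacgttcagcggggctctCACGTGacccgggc

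The stretch holds 4 E-boxes, which end 133, 88, 40 and 9 bases before the start, and 1 GC box, also in capitals. An E-box was in 6.49% of the promoters searched and in 2 of the 9 members', those of BAX and BBC3. MYC was at 1.59 and 1.07 RPKM in GADD45g cells and 35.1 and 42.9 RPKM in untreated cells. No link between MYC and BAX or BBC3 was tested, and neither BAX nor BBC3 passed the threshold.

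The balance of death to survival RNA was described by ratios of RPKM, without a test. The ratio of MCL1 to PMAIP1 was 1.42 and 1.79 in GADD45g replicates 1 and 2, against 5.05 and 9.57 in untreated replicates 1 and 2. Although MCL1 was higher in GADD45g cells, PMAIP1 differed by more, and the ratios did not overlap. The ratio of BCL2A1 to PMAIP1 was 5.55 and 12.3 in GADD45g cells and 28.7 and 74.1 in untreated cells. The summed BH3-only level was 0.325 and 0.206 of the summed pro-survival level in GADD45g cells, against 0.147 and 0.143 in untreated cells. With BCL2A1 left out of the pro-survival sum, this ratio was 1.46 and 1.47 in GADD45g cells and 0.757 and 0.883 in untreated cells. These are RNA levels per gene length, and protein was not measured.

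The order of the 10 members by RPKM was the same in both libraries of a group. BCL2A1, MCL1 and BMF held the top places, in that order, and BBC3 and BCL2 last, in all 4 libraries. PMAIP1 was in place 4 in GADD45g cells and in place 8 in untreated cells. In GADD45g cells MCL1 and BMF lay close, with MCL1 at 119 and 108 RPKM and BMF at 99.2 and 106 RPKM. MCL1 was the higher in both libraries, and the difference between these genes was not tested. In untreated cells BCL2L1 and BCL2L11 lay close as well, at 16.9 and 17.9 RPKM and 16.0 and 15.3 RPKM.

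**Figure D3:**
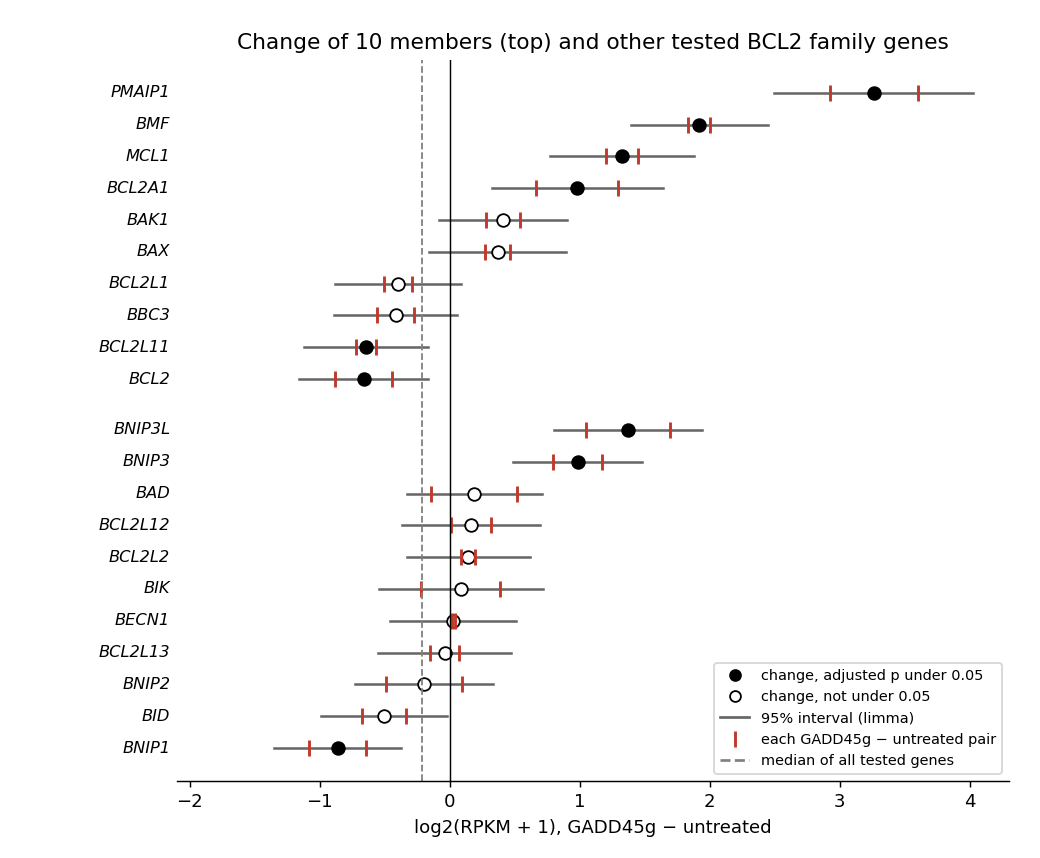
Difference in log2(RPKM + 1) between GADD45g and untreated cells for the 10 members and the 11 tested genes of the wider BCL2 family, with limma's 95% interval, the difference within each replicate number (red ticks) and the median of all tested genes (dashed, -0.21). Among the 10 members, the intervals of PMAIP1, BMF, MCL1 and BCL2A1 lie above 0 and those of BCL2 and BCL2L11 below 0. Both red ticks lie on the same side of 0 for each of the 10.

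Of 16 other BCL2 family genes, 11 were tested, with a median log2 change of 0.09. Of these 11, 2 were called higher and 1 lower in GADD45g cells, against 12.2% and 26.7% of all tested genes. The 2 that rose are related receptors with BH3-like stretches that mark mitochondria for removal. BNIP3L, also called NIX, was at 70.2 and 75.1 RPKM in GADD45g cells and 33.5 and 22.5 RPKM in untreated cells (log2 change 1.37, limma adjusted p = 0.00193). BNIP3 was at 21.0 and 23.9 RPKM in GADD45g cells and 11.7 and 10.1 RPKM in untreated cells (log2 change 0.98, adjusted p = 0.00566). BNIP1, a protein of vesicle transport, fell to 1.41 and 1.13 RPKM in GADD45g cells, against 2.77 and 3.50 RPKM in untreated cells (log2 change -0.86, limma adjusted p = 0.0105). The BNIP1 call was lost with no filter (adjusted p = 0.0863), after quantile normalization (0.0501) and without GADD45g replicate 1 (0.0516) or 2 (0.106). The BNIP3 call was lost without GADD45g replicate 2 (0.0562), which left 1 call in this list, whereas BNIP3L passed under every setting tried. BID, the BH3-only protein cut by caspase-8, was at 7.68 and 6.51 RPKM in GADD45g cells and 9.94 and 11.0 RPKM in untreated cells, and its log2 change of -0.51 did not pass (adjusted p = 0.0909).

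Other members of the wider family showed small differences. The log2 changes of BAD (0.19), BCL2L12 (0.16), the pro-survival gene BCL2L2 (0.14), BIK (0.09), BECN1 (0.03), BCL2L13 (-0.04) and BNIP2 (-0.20) did not pass the threshold. Of these 7, the groups were apart only for BCL2L2, at 9.97 and 9.97 RPKM in GADD45g cells and 8.57 and 9.35 RPKM in untreated cells. BCL2L10, BCL2L14, BCL2L15, BOK and HRK lay between 0 and 0.201 RPKM in every library and were not tested.

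A further list held genes of steps downstream of the mitochondrial pore together with the VDAC channels of the outer membrane. Of its 13 tested genes, 3 were higher and 5 lower in GADD45g cells, with a median log2 change of -0.62. The shares of all tested genes were 12.2% higher and 26.7% lower. CASP9, the initiator caspase of the apoptosome, was at 3.10 and 3.67 RPKM in GADD45g cells and 1.52 and 1.49 RPKM in untreated cells (log2 change 0.81, limma adjusted p = 0.0124). The mitochondrial nuclease gene ENDOG was at 5.96 and 4.65 RPKM in GADD45g cells and 12.4 and 15.8 RPKM in untreated cells (log2 change -1.26, adjusted p = 0.00172). VDAC1, a channel of the outer membrane, was at 29.7 and 27.2 RPKM in GADD45g cells and 62.2 and 50.6 RPKM in untreated cells (log2 change -0.96, adjusted p = 0.00884). The CASP9 call was lost with no filter (adjusted p = 0.0836) and without GADD45g replicate 1 (0.0595) or 2 (0.13). The VDAC1 call was lost without untreated replicate 1 (0.0533) and without GADD45g replicate 2 (0.061), whereas ENDOG passed under every setting tried. Over all tested genes, 17.6% were called higher and 19.2% lower after TMM scaling, and 17.4% and 19.0% with the median shifted to 0. With no filter the shares were 3.98% and 7.92%, and those with a library left out are given below. The 8 calls in this list became 5 after TMM scaling or with the median shifted to 0, and 3 with no filter. They became 4 without GADD45g replicate 1, 2 without GADD45g replicate 2 and 4 without untreated replicate 1.

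Of 13 tested genes that act on the stability or location of MCL1, NOXA, BIM or BMF, 1 was higher and 1 lower. Among all tested genes 12.2% were higher and 26.7% lower. The median log2 change of the 13 was 0.145. BAG3, a co-chaperone that stabilises MCL1, was at 14.9 and 14.3 RPKM in GADD45g cells and 5.54 and 7.36 RPKM in untreated cells (log2 change 1.08, limma adjusted p = 0.0035). USP13, a deubiquitinase of MCL1, was at 1.00 and 1.31 RPKM in GADD45g cells and 3.40 and 3.51 RPKM in untreated cells (log2 change -1.05, adjusted p = 0.00317). USP9X, another such deubiquitinase, and CUL5, the scaffold of a ligase that acts on NOXA, did not pass (log2 changes 0.55 and -0.65, limma adjusted p = 0.0836 and 0.060). USP9X passed under the 4 other scalings (adjusted p = 0.0213 to 0.0389). CUL5 passed with the replicate block (0.0191), without untreated replicate 2 (0.0236), with voom (0.0236), with a robust prior (0.0336) and with a filter at 5 RPKM (0.0338). The USP13 call was lost with no filter (0.051).

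Of 18 tested transcription factors known to act on family genes, 5 were higher and 4 lower, against 12.2% and 26.7% of all tested genes. Their median log2 change was -0.04. JUN, which has been linked to induction of BH3-only genes under JNK signalling, was at 342 and 258 RPKM in GADD45g cells and 15.1 and 16.7 RPKM in untreated cells. ATF3, a stress factor that can act at PMAIP1, was at 29.2 and 22.9 RPKM in GADD45g cells and 1.78 and 1.35 RPKM in untreated cells. The log2 changes were 4.14 for JUN, 3.39 for ATF3, -4.10 for MYC and -1.87 for E2F1 (limma adjusted p = 1.68e-06, 3.48e-06, 1.05e-06 and 9.05e-05). No link between these levels and those of the members was tested.

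The genes most like each member in profile were found as the nearest protein-coding genes by Euclidean distance of centred log2(RPKM + 1) over the 4 libraries. For PMAIP1 these were GDF15, ERRFI1 and EMP1, at distances of 0.26, 0.32 and 0.60. GDF15 stood at 54.6 and 30.4 RPKM in GADD45g cells and 5.51 and 1.99 RPKM in untreated cells. For BMF they were ERV3-1 (0.05), FYN (0.11) and PHC2 (0.15), and for MCL1 they were ITGAV (0.09), RAB13 (0.12) and ANTXR2 (0.13). For the other 6 members the nearest were CHML (BCL2), ARFGAP2 (both BCL2L1 and BBC3), RBM17 (BCL2L11), NFKBIB (BAX) and FBXO9 (BAK1). For BCL2A1 they were CCL2, RB1CC1 and GCC2 (0.09, 0.12 and 0.15). CCL2 showed the same higher value in GADD45g replicate 2 as BCL2A1, at 11.8 and 18.6 RPKM in GADD45g replicates 1 and 2 and 7.17 and 6.79 RPKM in untreated replicates 1 and 2. With only 4 libraries in 2 groups, the distances are descriptions.

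The calls of the members depended unequally on processing. PMAIP1, BMF and MCL1 passed under all 17 other settings tried, with log2 changes of 2.69 to 3.83, 1.77 to 2.16 and 1.13 to 1.57. BCL2A1 passed under 13 of the 17, BCL2L11 under 8 of 17 and BCL2 under 7 of 16. Over all tested genes the calls were 1314 higher and 2871 lower, and after TMM scaling 1898 higher and 2063 lower. Each of the 4 other scalings brought the median change of all genes closer to 0 than -0.21. With TMM scaling or a median shifted to 0, 5 members were called higher, against 17.6% and 17.4% of all tested genes. With upper quartile scaling and quantile normalization 4 were, against 15.8% and 17.4%. Under these 4 scalings 0 members were called lower, against 21.3% (upper quartile), 19.2% (TMM), 19.3% (quantile) and 19.0% (shifted median) of all tested genes. With no filter 3 members were higher and 0 lower, against 3.98% and 7.92% of all genes then tested. A pseudocount of 0.1 left 4 higher and 1 lower, against 12.1% and 26.4%, and a filter at 5 RPKM 4 higher and 1 lower, against 14.9% and 29.5%.

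Leaving out a library left 3 to 4 members higher and 0 to 1 lower. The shares of all tested genes called higher were then 7.41% and 7.72% without GADD45g replicates 1 and 2, and 8.93% and 10.5% without untreated replicates 1 and 2. Those called lower were 17.8% and 16.4% without GADD45g replicates 1 and 2, and 20.7% and 22.7% without untreated replicates 1 and 2. A fit with the replicate number as a block gave 4 members higher and 2 lower, against 14.8% and 31.5% of all tested genes.

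**Figure D4:**
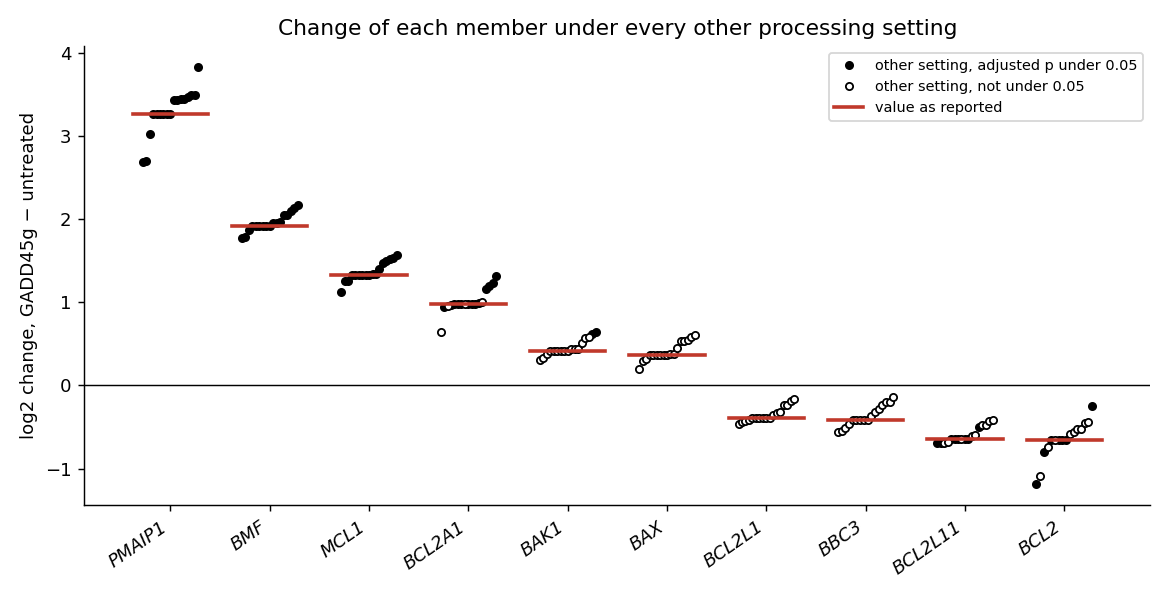
Log2 change of each member under each alternative setting (points; filled where limma's adjusted p was under 0.05) beside the value reported here (red line), ordered from the highest to the lowest change. No member changed sign, PMAIP1, BMF and MCL1 are filled throughout, and BCL2L11 and BCL2 are filled under 8 of 17 and 7 of 16 settings.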

How the data were processed

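RNA was profiled in 2 GADD45g and 2 untreated libraries, grouped by title. The authors deposited RPKM for each Ensembl gene ID, per the file headers. TopHat, Cuffnorm, Cuffdiff and hg19 come from the submitters' processing notes, which give neither versions nor roles. No source used here gives strand or RNA selection. The file of GADD45g replicate 1, as used here, ends after 27332 of 57820 IDs, so only IDs listed in all 4 files were used (93.3% of protein-coding IDs). Symbols came from a table of gene names. Gene positions are those of GENCODE 29 on GRCh38 and are not coordinates of the files.

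Rows that share a symbol were added up, a mean of 1 RPKM was required (10771 genes passed), and log2(RPKM + 1) was compared with limma 3.58.1 (R 4.3.3; eBayes with trend; 2 residual and 8.72 prior degrees of freedom), two-sided, with p-values adjusted by Benjamini-Hochberg across the tested genes and called under 0.05. Reads were recovered from the RPKM values as whole multiples of the value of 1 read, with gene lengths from GENCODE 29 or solved from the values. The lengths so used were 7665 bases for BCL2, 4218 for MCL1 and 2235 for PMAIP1. Exact Poisson intervals of 95% from those reads cover counting error only. The code was tested on simulated data. Replicates are called biological in the labels, with no word on separate cultures. The p-values therefore measure spread between these libraries only, with the spread of each gene drawn by the prior toward that of all tested genes.

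The members and gene lists were chosen with earlier results of these data known. The text names all 10 members, every tested gene of the wider family, up to 4 genes of each further list with the smallest adjusted p, and the 3 genes nearest to a member in profile (the nearest alone for 6 members). Alternatives were other pseudocounts, filters, scalings, priors, a replicate block, each library left out, only the top row of a symbol, and limma's voom on recovered reads. Protein sequences were not used here. Some genes that this rule names are not reported here.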

Additional observations from a re-analysis of the deposited data

How the results depend on the processing

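Over the 10 members, 144 of 168 values under other settings kept their direction and their side of the threshold, 22 lost the threshold, 2 (both BAK1) gained it and 0 changed sign. The 2 members called lower were 1 with a pseudocount of 0.1 and with a filter at 5 RPKM, where BCL2 was not tested. They were 0 with no filter on low values and after upper quartile scaling, TMM scaling, quantile normalization and a median change shifted to 0. With each library left out in turn they were 0 to 1, and the members called higher were 3 to 4. The number called over all tested genes was 2462 with no filter, and 2597 to 3582 with each library left out, the lowest without GADD45g replicate 2 and then 2719 without GADD45g replicate 1. The cause was not tested, except that these fits have fewer libraries or, with no filter, more low genes.

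Titles of replicate 2 in both groups carry the same suffix, and deviations from the group means correlated between same-numbered libraries across genes (r = 0.35), but nothing in the labels says that a number marks a shared culture or day. With the replicate block 4987 genes were called, and 4 members were higher and 2 lower.

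Some genes of the wider family with log2 changes near 0 changed sign without passing the threshold. BCL2L13 was at 0.12, 0.19, 0.13 and 0.17 after upper quartile, TMM, quantile and median scaling, and at -0.23 to 0.15 with a library left out. BNIP2 was at 0.042 after TMM and 0.014 after median scaling. With a library left out BNIP2 ranged from -0.42 to 0.020, BAD from -0.021 to 0.39, BECN1 from -0.0086 to 0.062, BIK from -0.34 to 0.51 and BCL2L12 from -0.036 to 0.37. Counting error is widest for BCL2 and BBC3, with 102 to 322 reads per library, and for PMAIP1 in untreated replicate 2, with 143 reads.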
